A study of Mus musculus with 108 samples.

Results

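Expression of 7 genes was followed across brain regions, developmental periods and Cul3 genotypes: the neurotrophins Bdnf and Ntf3, the receptors Ntrk2 (TrkB), Ntrk3 (TrkC) and Ngfr (p75NTR), and the growth factors Igf1 and Vegfa. They were picked by name out of 53465 genes in the count data, and each of the 7 was matched by its Ensembl identifier and passed the filter on low counts in every comparison. RNA was sequenced from 3 brain regions, CX (cortex), HIP (hippocampus) and CB (cerebellum), of wild-type (WT) mice and of mice heterozygous for a germline frameshift in Cul3, which encodes a scaffold of ubiquitin ligases. There were 6 mice of each genotype at a late embryonic stage (E17.5) and at postnatal day 7 (P7), and 5 of each genotype among young adults, which the labels call P35. Each mouse gave 1 library per region. The labels write the strain as C56Bl/6N, and the Cul3+/- line descends from 1 founder crossed to WT mice, so every mutant carries the same allele in every cell. The study had 36 mice and 108 libraries, and 34 mice were used here, because the labels and the study's own quality table gave opposite genotypes for 2 adult mice, 1 from each group.

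Neurotrophins are secreted proteins that bind Trk receptor tyrosine kinases and thereby act on the survival, growth and synapses of neurons: BDNF binds TrkB and NT-3 mainly binds TrkC. Both also bind p75NTR, which lacks a kinase and has a higher affinity for the unprocessed pro-forms. Bdnf transcription responds to neuronal activity through several alternative promoters, IGF-1 is a hormone and a local growth factor whose receptor is a tyrosine kinase, and VEGF-A drives the growth of blood vessels and is induced by low oxygen.

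In the GENCODE vM21 annotation of GRCm38, Bdnf lies on chromosome 2 (109674700 to 109727007, plus strand), Ntf3 on chromosome 6 (126101412 to 126166910, minus), Ntrk2 on chromosome 13 (58806569 to 59133970, plus) and Ntrk3 on chromosome 7 (78175959 to 78738012, minus). Ngfr lies on chromosome 11 (95568818 to 95587735, minus), Igf1 on chromosome 10 (87858265 to 87937042, plus) and Vegfa on chromosome 17 (46016993 to 46032369, minus). Ntrk2 has 10 annotated transcripts, of which 7 are coding, and Ntrk3 has 20, of which 6 are coding. A gene's count sums all of its transcripts, so full-length receptors and receptors without a kinase were not told apart.

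The promoters of Bdnf and Vegfa are shown because each held, in 1 of its annotated promoter windows, the letters CACGTCA, the core of an element known for its response to calcium signals. RefSeq on GRCm38.p6 gave windows of 300 bases around 14 starts of 6 of the genes, 7 of them for Bdnf, and none for Ntrk3. Searched on both strands, CACGTCA was in 2 of the 14 windows and in 2.01% of all 32851 windows, TGACGTCA was in 0 of 14 against 1.79%, and the EGR site GCGTGGGCG was in 0 of 14 against 0.612%. The short hypoxia core ACGTG, whose reverse complement overlaps CACGTCA, was in 5 of 14 against 19.6%. With 7 of the 14 windows from Bdnf alone, no excess or lack is read from these shares. The capitals mark CACGTCA, whose first base lies at -37 from the start in the Bdnf window and at -211 in the Vegfa window. The Bdnf stretch is chr2:109692388-109692417 on the plus strand and the Vegfa stretch is chr17:46025356-46025385 on the minus strand. Both are 5′ to 3′, and a match of letters is a description, not a binding site.
Bdnf: atatgacagctCACGTCAaggcagcgtgga
Vegfa: gagtgcgtgccCACGTCAgagagcaacatc

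Libraries held between 15126114 and 44411282 expected counts. Levels are CPM, counts scaled to a common library size, on totals normalized by the trimmed mean of M values (TMM), and differences are log2 fold changes from edgeR's quasi-likelihood test with Benjamini-Hochberg adjustment over all genes tested. The tissue labels held in the marker lists: the summed level of 8 cerebellar genes was between 1090 and 5440 CPM in WT CB and between 22.2 and 335 CPM in CX and HIP, and that of 6 hippocampal genes was between 520 and 1880 CPM in HIP and at most 351 CPM elsewhere. Cul3 in Cul3+/- mice was between 50.2% and 61% of WT over the 9 combinations of period and region, and the genotypes did not overlap in 9 of 9.

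Some libraries stood apart from their groups. At E17.5 the mouse names carry the prefixes S2, S3 and S4, with 2 WT and 2 Cul3+/- mice under each, and the labels do not say what a prefix stands for. The S3 libraries of both genotypes were low for Igf1 and Ntrk2 in CX. In CX, Igf1 was 1.51 and 1.78 CPM in the 2 WT mice under S3 and between 3.24 and 4.52 CPM in the other 4, and it was 1.36 and 1.53 CPM in the 2 Cul3+/- mice under S3 and between 3.23 and 5.66 CPM in the rest. Ntrk2 in CX was 187 and 158 CPM in the WT mice under S3 against 282 to 397 CPM in the others. In HIP, Bdnf was 8.76 and 8.35 CPM in the WT mice under S3 against 12.1 to 13.9 CPM, and Igf1 was 4.40 and 3.61 CPM against 13.1 to 16.5 CPM. In adult CB, WT mice 3 and 5, by the numbers of their CB libraries, stood apart for Ntrk3. Where leaving these mice out changed a call or a direction described here, the value without them is given, and both omissions were chosen after the values had been seen.

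In WT development, 18 of 42 member tests passed an adjusted p of 0.1 with at least a 2-fold change, 9 upward and 9 downward. From E17.5 to P7, 4 of the 7 genes passed in CX, 4 in HIP and 1 in CB, beside 37.4%, 30.9% and 20.1% of all genes. From P7 to adult, 4 passed in CX, 1 in HIP and 4 in CB, beside 21.9%, 18.3% and 34.3% of all genes. Between WT regions, 24 of 63 tests passed, 13 upward and 11 downward. At E17.5, 3 genes passed for HIP against CX, 3 for CB against CX and 4 for CB against HIP, beside 12.3%, 19.2% and 14.5% of all genes. At P7 the same comparisons called 1, 4 and 3 genes beside 10.7%, 33% and 27%, and in adults 1, 3 and 2 genes beside 11.8%, 27.4% and 27.6%. With 7 genes a share is coarse. Consecutive developmental steps share the P7 libraries and the regional comparisons share regions, so their counts are not independent. In bulk tissue, fewer cells of a type and less RNA per cell cannot be told apart.

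**Figure D1:**
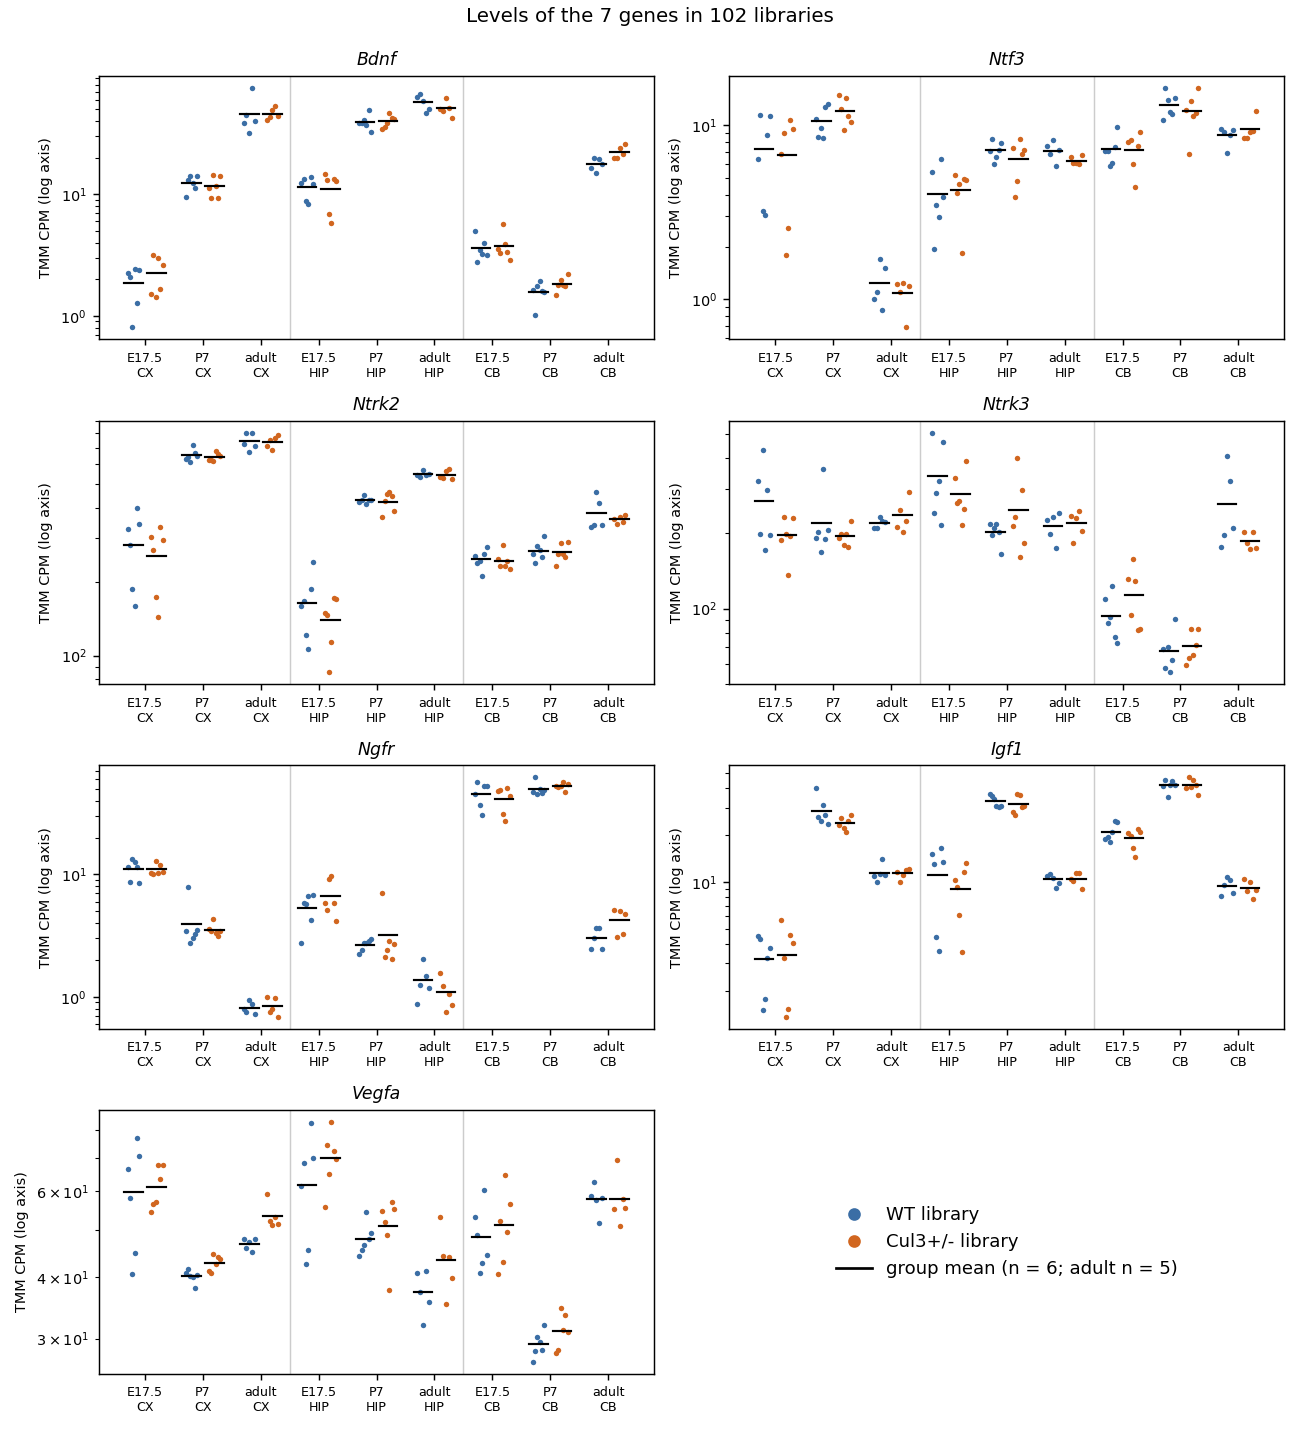
TMM-normalized CPM on a log axis for each of the 7 genes in each library, by period and region (WT blue, Cul3+/- orange), with a black line at each group mean (n = 6 at E17.5 and P7, n = 5 in adults). Bdnf rose across both steps in CX, Ngfr was high in CB at E17.5 and P7 and low in adults, and Ntf3 was lowest in adult CX.

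Bdnf, the ligand of TrkB, spanned a 36.1-fold range of WT group means, from 1.58 CPM in P7 CB to 57.2 CPM in adult HIP. It rose in CX at both steps, rose in HIP from E17.5 to P7, and in CB fell before it rose. In WT CX the lowest, median and highest libraries were 0.807, 2.18 and 2.45 CPM at E17.5 and 9.43, 12.8 and 14.3 CPM at P7, and the 5 adult libraries were 38.5, 45, 31.8, 75.2 and 40.2 CPM. These 3 periods did not overlap, and 1 adult mouse at 75.2 CPM was well above the others. The log2 fold change was 2.68 (SE 0.244, adjusted p 1.28e-08) from E17.5 to P7 and 1.92 (SE 0.225, adjusted p 6.67e-07) from P7 to adult.

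In HIP, Bdnf ran from 8.35 through 12.3 to 13.9 CPM at E17.5 and from 32.6 through 38.7 to 49.0 CPM at P7, a log2 change of 1.76 (SE 0.132, adjusted p 1.98e-09). The adult HIP libraries, at 63.2, 67.3, 58.4, 47.1 and 50.1 CPM, overlapped those of P7, and the fold change of 1.47 did not reach 2-fold. In CB, Bdnf was 2.76, 3.35 and 4.98 CPM (lowest, median, highest) at E17.5 and 1.01, 1.61 and 1.94 CPM at P7, a log2 change of -1.20 (SE 0.152, adjusted p 1.62e-06). The adult CB libraries were 16.4, 19.9, 15, 19.7 and 17.8 CPM. Every one lay above every P7 library, and the fold change was 11.3 (log2 3.50, SE 0.155, adjusted p 2.14e-13).

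HIP held more Bdnf than CX at the earlier periods. The log2 difference was 2.66 (SE 0.226, adjusted p 1.16e-06) at E17.5 and 1.65 (SE 0.0947, adjusted p 4.35e-09) at P7, and in adults it was 0.34 (95% interval -0.0144 to 0.703), which did not pass the test. CB was below HIP at each period, by a log2 difference of -1.67 (SE 0.213) at E17.5, -4.56 (SE 0.117) at P7 and -1.69 (SE 0.171) in adults. At P7 this was a 23.6-fold gap (adjusted p 3.73e-14). Ordered by WT level, adult HIP, adult CX and P7 HIP overlapped with their neighbours and stood above adult CB, followed by P7 CX and E17.5 HIP, which overlapped, then E17.5 CB, and last E17.5 CX and P7 CB, which overlapped.

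Ntf3, which encodes NT-3, was lowest in adult CX. In WT CX it was 8.47, 10.2 and 13.2 CPM (lowest, median, highest) at P7 and 1.01, 1.10, 1.72, 0.876 and 1.51 CPM in the 5 adults. No adult library came near the P7 range, and the log2 fold change was -3.04 (SE 0.343, adjusted p 4.03e-07), an 8.25-fold fall. Adult HIP, with 7.61, 6.79, 8.24, 5.82 and 7.24 CPM, and adult CB, with 9.54, 9.11, 6.96, 8.76 and 9.35 CPM, both stood above adult CX. The log2 difference from CX was 2.5 (SE 0.163, adjusted p 1.03e-07) for HIP and 2.82 (SE 0.162, adjusted p 6.22e-09) for CB, or 5.67-fold and 7.06-fold.

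Outside adult CX the Ntf3 means lay between 4.00 CPM in E17.5 HIP and 13.1 CPM in P7 CB, and each group overlapped its neighbour in the order of levels. No other Ntf3 test passed in WT mice. At E17.5 the CX libraries of Ntf3 were split by prefix, with 3.23 and 3.04 CPM in the WT mice under S3 and 6.39 to 11.4 CPM in the others, and without the S3 mice Ntf3 in HIP was below CX by a log2 difference of -1.14, which passed the test.

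The balance of the ligands differed by region in adults. The WT mean of the log2 ratio of Bdnf over Ntf3 CPM within a library, which is not corrected for gene length, went from -1.84 ± 0.86 (SD, n = 6) at E17.5 through 0.25 ± 0.37 at P7 to 5.12 ± 0.81 (n = 5) in adult CX. In HIP it was 1.58, 2.44 and 2.99 at the same periods, and in CB it was -1, -3.01 and 1.02. The adult CX value rests on both a high Bdnf level and a low Ntf3 level.

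**Figure D2:**
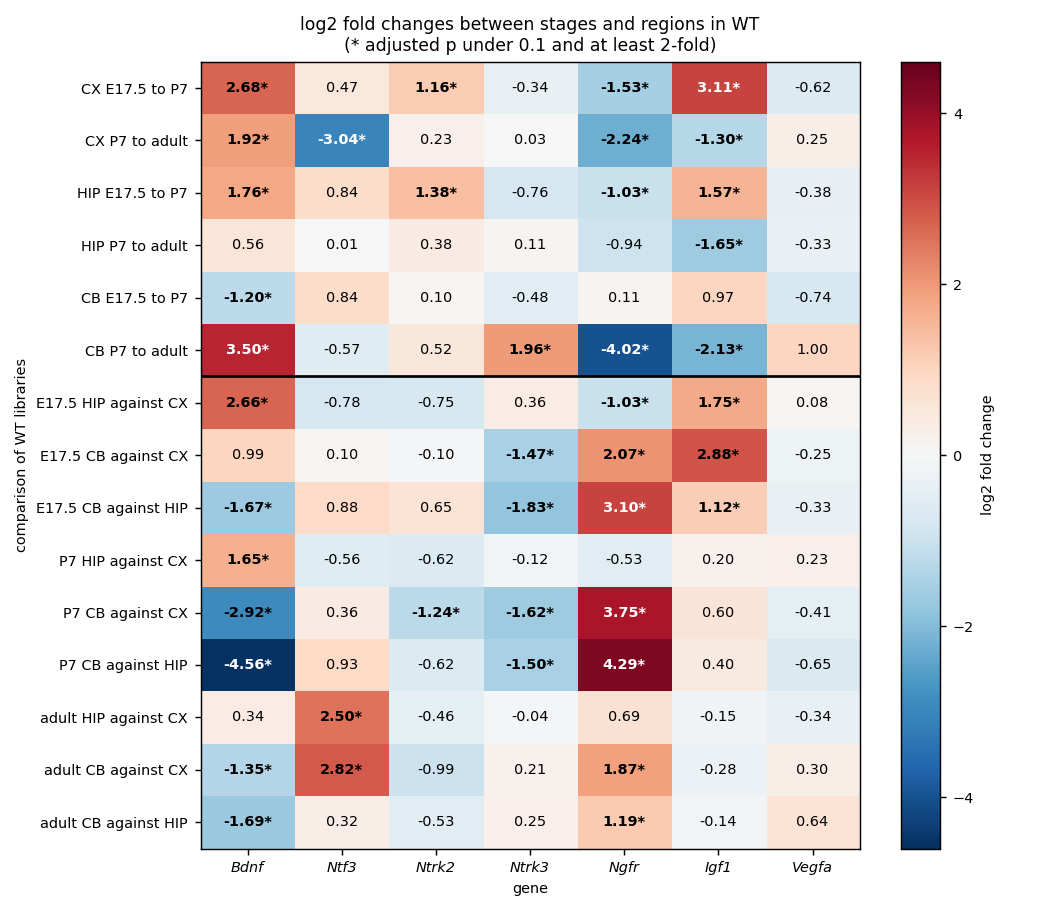
Log2 fold changes of the 7 genes (columns) in WT mice for 6 developmental and 9 regional comparisons (rows), with an asterisk where the adjusted p was under 0.1 and the change at least 2-fold. The deepest falls were Ngfr in CB from P7 to adult (-4.02) and Bdnf in P7 CB against HIP (-4.56), and no Vegfa cell carries an asterisk.

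Ntrk2, which encodes TrkB, was the receptor with the highest level per length in adult CX, at 38.6 CPM per kb of exons against 7.27 for Ntrk3 and 0.237 for Ngfr. The length joins the exons of all annotated transcripts of a gene and may exceed that of any 1 transcript. It was 19.3 kb for Ntrk2, 30.2 kb for Ntrk3 and 3.45 kb for Ngfr. It rose from E17.5 to P7 in both forebrain regions. In WT CX it was 158, 305 and 397 CPM (lowest, median, highest) at E17.5 and 612, 645 and 715 CPM at P7. The periods did not overlap, and the log2 fold change was 1.16 (SE 0.166, adjusted p 4.37e-06). Without the S3 mice it was 0.89 and no longer 2-fold. In HIP the median went from 163 to 429 CPM, a log2 change of 1.38 (SE 0.135, adjusted p 5.44e-08). In CB the means were 247, 267 and 379 CPM over the periods with no call. CB was above HIP at E17.5, where its mean compared with 164 CPM, and below both forebrain regions at P7 and in adults. At P7 the log2 difference of CB from CX was -1.24 (SE 0.0513, adjusted p 5.52e-12). In adults this difference was -0.99, just short of 2-fold in WT, and -1.08 in Cul3+/- mice, where it passed. WT mice 3 and 5 of CB stood at 463 and 418 CPM of Ntrk2 against 334 to 340 CPM in the other 3, and without them the WT difference was -1.16 and passed, as it did at -1.01 with DESeq2.

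Ntrk3, which encodes TrkC, was at similar levels in CX and HIP at all periods and low in the developing CB. The WT means in CX were 270, 220 and 219 CPM over the periods, those in HIP were 339, 202 and 215 CPM, and no step or HIP against CX comparison passed. In CB the libraries ran from 72.9 to 123 CPM at E17.5 and from 55.8 to 91.3 CPM at P7, and the highest of both was below the lowest forebrain library of its period. The log2 difference of CB from CX was -1.47 (SE 0.237, adjusted p 0.000143) at E17.5 and -1.62 (SE 0.15, adjusted p 8.63e-08) at P7, and Cul3+/- mice had -0.75 at E17.5, which did not reach 2-fold.

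In adult CB, Ntrk3 was 177, 196, 407, 325 and 209 CPM in WT mice 1, 2, 3, 5 and 6. Each adult library lay above each P7 library, and the rise was 3.9-fold (log2 1.96, SE 0.203, adjusted p 5.08e-08), with 1.41 on the log2 scale in Cul3+/- mice. Without WT mice 3 and 5 the log2 value was 1.53. The log2 difference of adult CB from CX was 0.21 (95% interval -0.158 to 0.572, adjusted p 0.285) in WT and -0.37 in Cul3+/- mice, and without WT mice 3 and 5 it was -0.15, so its direction in WT rests on those mice.

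Ngfr, which encodes p75NTR, was highest in the developing CB and had the widest range of group means of the 7, 61.2-fold. In P7 CB its level per length, 14.5 ± 1.8 CPM per kb (SD, n = 6), was close to that of Ntrk2 (13.8 ± 1.23) and above that of Ntrk3 (2.25). Before the division by length the WT means there were 49.9 CPM for Ngfr, 267 CPM for Ntrk2 and 67.8 CPM for Ntrk3. The order of the 3 receptors in P7 CB therefore rests on the lengths used. Its WT CB libraries were 30.4, 49.0 and 56.7 CPM (lowest, median, highest) at E17.5 and 45.3, 48.3 and 62.1 CPM at P7, and the adult libraries were 2.46, 3.02, 3.62, 3.63 and 2.46 CPM. The 2 early periods overlapped and the adults were far below both, with a 16.3-fold fall from P7 (log2 -4.02, SE 0.171, adjusted p 1.24e-13). In Cul3+/- mice this fall was -3.61 on the log2 scale.

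Ngfr also fell in the forebrain, from lower levels. In CX the log2 fold change was -1.53 (SE 0.212, adjusted p 2.86e-06) from E17.5 to P7 and -2.24 (SE 0.261, adjusted p 6e-07) from P7 to adult, when the 5 libraries lay between 0.724 and 0.936 CPM, on 23 to 30 counts each. In HIP the log2 fold change from E17.5 to P7 was -1.03 (SE 0.205, adjusted p 0.000219), just past 2-fold. It fell short of 2-fold without the S3 mice (-0.91) and without 1 WT mouse (mouse 4 or 6 of E17.5, -0.96 and -0.95, or mouse 1 of P7, -0.98). Without WT mouse 2 of P7 or without the low-count filter it rounded to -1 and was marginally short. With a block by replicate number, which joins unrelated mice of different periods, it was -0.98. The next step in HIP was -0.94 in WT, short of 2-fold, and -1.51 in Cul3+/- mice, where it passed, and without WT mice 3 and 5 of adult CB it was -1.28 and passed in WT as well. CB exceeded HIP by a log2 difference of 3.10 (SE 0.233) at E17.5, 4.29 (SE 0.159, adjusted p 2.15e-12) at P7 and 1.19 (SE 0.135) in adults, and CX by 2.07, 3.75 and 1.87. Each of these 6 tests passed.

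Igf1 rose from E17.5 to P7 in CX and HIP and fell from P7 to adult in CX, HIP and CB, so that P7 was its highest period in each region. In WT CX it was 1.51, 3.50 and 4.52 CPM (lowest, median, highest) at E17.5 and 23.4, 26.6 and 39.9 CPM at P7, and the adult libraries were 10.8, 9.95, 11.2, 14.1 and 11 CPM. The periods did not overlap. The log2 fold change was 3.11 (SE 0.228, adjusted p 6.64e-10), or 8.64-fold, to P7 and then -1.30 (SE 0.221, adjusted p 5.53e-05). In HIP the steps were 1.57 (SE 0.269) and -1.65 (SE 0.286) on the log2 scale, and both passed. In CB, Igf1 went from 18.1 to 24.6 CPM at E17.5 to 34.9 to 45.1 CPM at P7, a 1.96-fold change that missed the fold threshold in WT and passed in Cul3+/- mice. The fall to the adult CB libraries, which lay between 8.08 and 10.8 CPM, was 4.37-fold (log2 -2.13, SE 0.099, adjusted p 4.63e-13).

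At E17.5 Igf1 was unevenly spread over the regions. CB was above CX by a log2 difference of 2.88 (SE 0.264, adjusted p 9.15e-07), HIP was above CX by 1.75 (SE 0.258, adjusted p 0.000143), and CB was above HIP by 1.12 (SE 0.247, adjusted p 0.00239). The last of these did not reach 2-fold without the S3 mice (0.59), without either of the WT mice among them (0.93 and 0.87) or without the mouse block (0.93). In adults the regional means were 11.4, 10.4 and 9.42 CPM in CX, HIP and CB, the ranges overlapped, and no regional test at P7 or in adults reached 2-fold.

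Vegfa was the most even of the 7 genes, with a 2.12-fold range of WT group means, and none of its 15 developmental and regional tests reached 2-fold with all WT mice in the fit. It was nevertheless measured closely enough to show smaller differences. In CB the libraries lay between 26.9 and 31.9 CPM at P7 and at 58.6, 62.5, 57.7, 51.7 and 58.2 CPM in adults, a 1.99-fold gap without overlap (log2 0.996, SE 0.0848, adjusted p 3.3e-09). Without WT mice 3 and 5 of adult CB the log2 value was 1.05. It was 1 without mouse 3 alone, 1.03 without mouse 5 alone and 1.01 without WT mouse 6 of P7, and each of these passed. CB was thereby the region with the lowest mean at P7 and the highest in adults. From E17.5 to P7 the log2 fold change was -0.62 (SE 0.118) in CX, -0.38 (SE 0.127) in HIP and -0.74 (SE 0.0815) in CB, each with an adjusted p under 0.1. At E17.5 the WT mice under S3 held the lowest Vegfa of their groups in CX, at 40.7 and 44.9 CPM, and in HIP, at 42.6 and 45.6 CPM.

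Another 96 genes in 7 lists surround these pathways. The immediate early genes, which mark recent neuronal activity and respond to it as Bdnf does, were called most often of the 7: 51 of 70 developmental tests passed upward and 5 downward, and among the regional tests 50 passed downward and 9 upward. These are 80% and 57.8% of its tests. Over all genes, 27.2% of developmental and 20.4% of regional tests passed. In CX, 12 of 12 passed upward from P7 to adult, with a median log2 fold change of 2.93 beside -0.031 for all genes, and 12 of 12 were lower in adult HIP than in adult CX, with a median of -1.67 beside 0.006. In adult CB against CX, 11 of 12 were lower, with a median of -3.36 beside 0.036. Egr2 had 12.3 to 50.5 CPM in adult WT CX and 0 to 3 counts in adult CB. Egr3 had 64.6 to 133 CPM in CX and 4 to 17 counts in CB. Bdnf itself was at most 3.23-fold lower in adult CB than in the forebrain regions.

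Among the other neurotrophin and Trk genes, 13 developmental tests of 152 passed upward and 19 downward, and 19 regional tests of 228 passed upward and 27 downward. These are 21.1% and 20.2% of the tests, beside the same 27.2% and 20.4% over all genes. Their median log2 fold change stayed between -0.33 and 0.17 in all 15 WT comparisons.

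Of the genes that process pro-neurotrophins, 12 of 54 developmental tests passed upward and 6 downward, and 12 of 81 regional tests passed upward and 16 downward, or 33.3% and 34.6%. Pcsk1, a prohormone convertase, rose in CX from E17.5 to P7 by 3.29 on the log2 scale (SE 0.193), and Mmp9, an extracellular protease, fell in CB by 3.13 (SE 0.185). The partners and adaptors of p75NTR passed in 3 of 48 developmental tests upward and 2 downward, and in 1 of 72 regional tests upward and 13 downward. The developmental share of 10.4% was below the 27.2% of all genes, and the regional share of 19.4% was close to their 20.4%. Lingo1, a coreceptor of p75NTR, was lower in adult CB than in CX by a log2 difference of -3.09 (SE 0.112), and Tnfrsf19, a related receptor, was lower in E17.5 CB than in HIP by -2.67 (SE 0.129).

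In the IGF system, 15 of 90 developmental tests passed upward and 18 downward, and 16 of 132 regional tests passed upward and 15 downward, or 36.7% and 23.5%. Pappa, a protease that frees IGFs from their binding proteins, was between 16.8 and 35.2 CPM in adult CB and at most 1.10 CPM in adult CX, a log2 difference of 4.81 (SE 0.202). Igfbp6, a binding protein, had 0 to 4 counts in E17.5 CX and 1.65 to 3.83 CPM at P7. In the VEGF system, 5 of 52 developmental tests passed upward and 11 downward, and 13 of 78 regional tests passed upward and 16 downward, or 30.8% and 37.2%. Nrp1, a coreceptor of VEGF-A, was between 444 and 690 CPM in E17.5 HIP and between 29.6 and 46.6 CPM in E17.5 CB, a log2 difference of -4.04 (SE 0.147). Vegfd, another ligand of the family, was between 0.621 and 1.72 CPM in adult HIP and had 1 to 5 counts in adult CB. Of the targets of hypoxia-inducible factors, 6 of 70 developmental tests passed upward and 7 downward, and 10 of 105 regional tests passed upward and 12 downward, or 18.6% and 21%. Nothing particular to these lists is read from shares of this size. Car9, a carbonic anhydrase, was between 9.14 and 14.3 CPM in adult CB and had 0 to 7 counts in adult CX, and Ndrg1 was lower in E17.5 CB than in CX by -2.92 (SE 0.178).

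No genotype difference was called in the 7 genes. Over the 63 tests of Cul3+/- against WT, 0 passed an adjusted p of 0.1 by edgeR's quasi-likelihood test, and also 0 by DESeq2 and by edgeR's likelihood ratio test. An unadjusted p under 0.05 was reached in 6 of the 63. The share of all genes called was 0.00603%, 0.00586% and 0.00568% at E17.5 in CX, HIP and CB, 0.00566%, 0.00563% and 0.0057% at P7, and 0.00569%, 0.00584% and 0.00584% in adults, which is 1 gene each time, Cul3 itself. The log2 fold changes of the members lay between -0.51 and 0.46 with a median of 0.01, and 34 were above 0. The 95% interval lay within a 2-fold change in either direction in 61 of 63 tests, and 38 of the 63 intervals lay within 0.5 on the log2 scale. The fit had no term for the prefix of the mouse names, so differences between prefixes are part of the spread behind the E17.5 intervals. The lowest bound of all was for Igf1 in E17.5 HIP (interval -1.15 to 0.542). The highest bound was for Igf1 in E17.5 CX (interval -0.734 to 0.904). With RUVs, which estimates factors of unwanted variation, 0 tests passed with 3 factors and 4 with 5 factors: Ngfr in P7 CB (log2 0.15), Vegfa in adult CX (0.19) and adult HIP (0.15), and Bdnf in adult HIP (-0.15). In P7 CB the summed choroid plexus markers had a median of 1500 CPM in Cul3+/- mice (28.8 to 2770) and 35.5 CPM in WT (18.7 to 1530), and their part in the Ngfr value was not tested. Over the 96 genes of the lists, 0 of 779 tests passed and 47 had an unadjusted p under 0.05, while DESeq2 called 4 and RUVs 17 with 3 factors and 31 with 5. The share of all genes called with DESeq2 or RUVs was not counted, so none of their calls is read as particular to these genes.

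**Figure D3:**
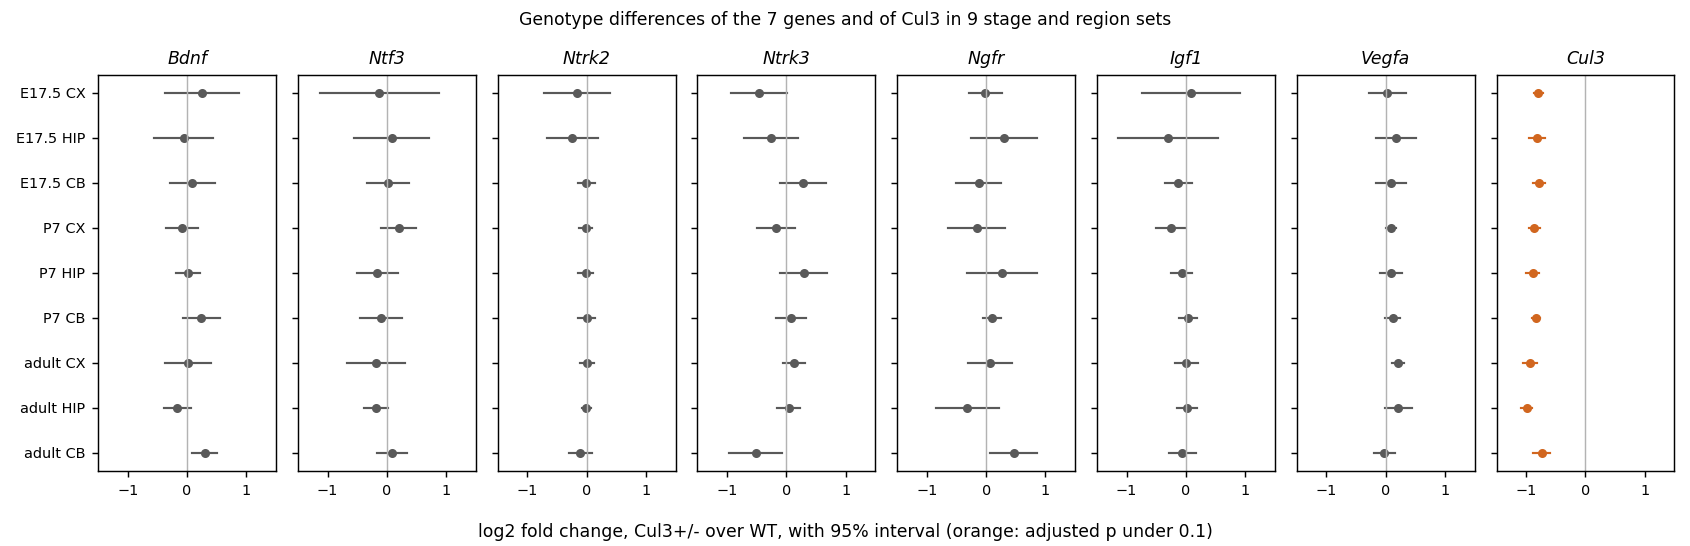
Log2 fold change of Cul3+/- over WT with its 95% interval for Cul3 and the 7 genes in the 9 combinations of period and region. Cul3 (orange, adjusted p under 0.1) lies between -0.99 and -0.74, and the 7 genes lie on both sides of 0 without a call.

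The 6 tests with an unadjusted p under 0.05 concerned Vegfa, Igf1, Bdnf, Ntrk3 and Ngfr. Vegfa in adult CX was 48.0, 46.0, 47.2, 45 and 48.0 CPM in WT and 59.3, 52.1, 51.2, 53.2 and 51.4 CPM in Cul3+/- mice. The genotypes did not overlap here, as in 0.632% of all genes in adult CX. This was 1 of the 63 member tests, beside 0.595% over all genes and the 9 combinations. The log2 fold change was 0.21 (SE 0.0483, 95% interval 0.101 to 0.31), with an adjusted p of 0.997 and an exact two-sided permutation p of 0.00794, the smallest that 5 against 5 mice can give. The interval of this difference ended well short of 2-fold. Vegfa in P7 CX was 0.095 higher on the log2 scale (SE 0.0399, adjusted p 0.9), and over the 9 combinations it was above WT in 8. The summed level of 8 endothelial markers in adult CX, 148 to 186 CPM in WT and 160 to 179 CPM in Cul3+/- mice, overlapped between the genotypes. That of 6 pericyte markers, 196 to 243 CPM in WT and 199 to 249 CPM in Cul3+/- mice, also overlapped. The median log2 fold change was 0.01 for the endothelial and 0.15 for the pericyte markers. Over all libraries, deviations of Vegfa from its group means ran with these lists at r = 0.52 and 0.54. Their part in the Vegfa value was not tested. Igf1 in P7 CX was lower in Cul3+/- mice by a log2 change of -0.26 (SE 0.115, adjusted p 0.9), and it was -0.14 without WT mouse 1, which at 39.9 CPM was above the 23.4 to 31.1 CPM of the other WT mice.

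Bdnf in adult CB was 16.4, 19.9, 15, 19.7 and 17.8 CPM in WT and 20, 19.9, 23.9, 21.6 and 26 CPM in Cul3+/- mice. The groups overlapped at 19.9 CPM, and the log2 fold change was 0.30 (SE 0.0963, 95% interval 0.0891 to 0.51), with an adjusted p of 0.304 and an exact permutation p of 0.0159. Ngfr in adult CB was 2.46, 3.02, 3.62, 3.63 and 2.46 CPM in WT and 5.16, 3.10, 5.04, 3.26 and 4.78 CPM in Cul3+/- mice. Of the mutants, 3 lay above each WT mouse and 2 among them, and the log2 fold change was 0.46 (SE 0.18, 95% interval 0.0704 to 0.859, adjusted p 0.336). In this dataset 14.4% of all genes had an unadjusted p under 0.05, against 1.67% to 6.25% in the other 8.

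Ntrk3 in adult CB had the largest genotype difference of the 7 genes, and it rested on 2 WT mice. The Cul3+/- libraries were 202, 182, 174, 202 and 174 CPM, within the 177, 196 and 209 CPM of WT mice 1, 2 and 6 or just below them, while WT mice 3 and 5 stood at 407 and 325 CPM. The log2 fold change was -0.51 (SE 0.205, 95% interval -0.962 to -0.0657), with an adjusted p of 0.339 and an exact permutation p of 0.119. It was -0.31 without WT mouse 3 and -0.08 without both mice. The 3 genes whose deviations from the group means followed those of Ntrk3 most closely were Nf1 (r = 0.944), Huwe1 and Bmpr2 (both r = 0.929), and, since these libraries entered the choice, they were high in WT mice 3 and 5 as well: Nf1 was 321 and 285 CPM against 167 to 200 CPM in the other 8 libraries. Huwe1 was 510 and 419 CPM in these mice against 269 to 292 CPM, and Bmpr2 was 284 and 255 CPM against 151 to 179 CPM. The summed hippocampal markers were 351 and 264 CPM in WT mice 3 and 5 of adult CB, 126 to 146 CPM in the other WT mice and 126 to 154 CPM in Cul3+/- mice, beside 529 to 692 CPM in adult WT HIP. The share of counts in genes annotated as sense intronic or unconfirmed transcripts was 0.177% to 0.248% in adult WT CB and 0.131% to 0.18% in Cul3+/- CB. Their part in the result was not tested.

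**Figure D4:**
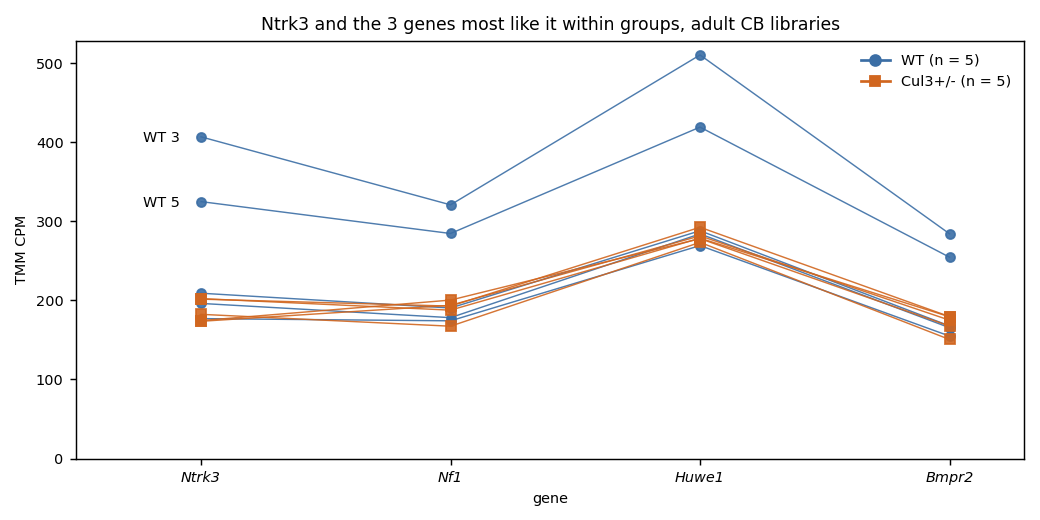
CPM of Ntrk3, Nf1, Huwe1 and Bmpr2 in the 10 adult CB libraries (WT circles, Cul3+/- squares, a line joins the values of a library). WT mice 3 and 5 are above the other 8 libraries in each of the 4 genes, of which the last 3 were chosen for following Ntrk3 in these and all other libraries.

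The developmental course and the regional pattern of the genes were also compared between genotypes. In 21 tests of genotype by period and 21 of genotype by region, 0 passed by edgeR's quasi-likelihood test, 0 by DESeq2 and 0 by edgeR's likelihood ratio test, and the unadjusted p was under 0.05 in 2 and 2. These were Ntrk3 (adjusted p 0.327) and Ngfr (0.372) over the periods of CB, and Ngfr (0.255) and Ntrk3 (0.278) over the adult regions. Of all genes, 0% passed over the periods of CX, of HIP and of CB, 0% over the regions at E17.5 and at P7, and 0.00525%, or 1 gene, over the adult regions. The within-library ratios Bdnf over Ntf3 and Ntrk2 over Ntrk3 gave 18 exact permutation tests, none called. The smallest adjusted p, 0.429, was for Bdnf over Ntf3 in adult CB, with a log2 ratio of 1.02 in WT and 1.24 in Cul3+/- mice.

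Across the libraries of the 34 mice, which share mice, regions and periods, the pattern of each gene was compared with 15775 named genes by Pearson's r of log2 CPM, as a description. Closest to Bdnf were Sema3e (0.936), Sstr3 (0.934) and Galnt18 (0.92), and closest to Ntf3 were Ehd1 (0.764), Rcor3 (0.754) and Desi2 (0.741). Ntrk2 was followed by Dlg2 (0.966), Thrb (0.965) and Gucy1b1 (0.958), Ntrk3 by Srgap3 (0.881), Flrt1 (0.874) and Clstn2 (0.86), and Ngfr by genes that include Nrm (0.943) and Slbp (0.926). Igf1 was followed by genes that include Ano5 (0.888) and Gusb (0.887), and Vegfa by Zfp692 (0.814), Taf1a (0.773) and Fam83h (0.764). Among the 7 genes, Bdnf and Ngfr ran most nearly opposite (r = -0.88).

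With the group means removed, so that only differences between mice of a group remain, other genes came first. The deviations of Bdnf ran closest to those of Syn2 (0.715), Pcsk1 (0.682) and Nap1l2 (0.679), those of Ntf3 to Ppp1r14c (0.771), Optn (0.767) and Spry2 (0.736), and those of Ntrk2 to Grid1 (0.923), Grm5 (0.92) and Atp1b1 (0.916). Ngfr ran with Crtap (0.617), Steap2 (0.595) and Col18a1 (0.576), Igf1 with Adarb2 (0.876), Stum (0.867) and Aldh1l1 (0.863), an astrocyte marker, and Vegfa with Dus3l (0.768), Dvl1 (0.686) and the VEGF receptor gene Flt1 (0.68). Ntrk2 and Igf1 deviated together (r = 0.75), and both were low in the CX and HIP libraries of the mice under S3 at E17.5.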

How the data were processed

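Stranded total RNA depleted of ribosomal RNA was sequenced, 1 library per region and mouse. The authors trimmed reads with Cutadapt 1.14, aligned them with STAR 2.5.3a to GRCm38.p5 (mm10) and quantified genes with RSEM 1.3, and the deposited values are RSEM expected counts without normalization, which share out reads that match several transcripts. Of these values 5.76% were not whole, and they were rounded. Library totals ran from 15126114 to 44411282, and among 240 replicate pairs the chi-square per gene was at least 5.73, far above sampling noise.

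Groups came from the sample labels. For 2 adult mice the labels and the study's quality table disagreed on genotype, and these were left out. The filterByExpr function (with a count of at least 10 and a total of at least 15) removed genes with few reads, TMM scaled the libraries, and they were tested with edgeR 4.0.16 in R 4.3.3 by the quasi-likelihood test, at an adjusted p of 0.1 for genotype and interactions and with at least a 2-fold change for development and regions. Regional fits had mouse as a block. The study's RUVs factors and sex were not among the values used here, so the genotype fit had no covariate. An SE was obtained by dividing the fold change on the log2 scale by the root of its F value. The exact permutation tests ran over every arrangement of mice (924 or 252). Scripts were tested on simulated data.

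The members, the pathway and marker lists and the tests were chosen with earlier results of these data known. The genes named are the members, members by dataset with an unadjusted p under 0.05, for each list the 2 with the largest called change, and for each member the 3 most alike genes without Gm or Rik names. Some of the genes that this rule names are not reported here. Libraries of WT and Cul3+/- mice with the same replicate number were most alike in E17.5 CX, where all 6 correlations of deviations exceeded 0.1 (0.113 to 0.759). In the other 8 datasets not all did so. The median was 0.474, 0.335 and 0.292 in CX, HIP and CB at E17.5, against -0.094, -0.03 and -0.017 for other pairs. It lay between -0.064 and 0.19 at P7 and in adults. The main genotype fit did not use this pairing. Alternatives were DESeq2 1.42.0, the likelihood ratio test, upper-quartile normalization, no low-count filter, RUVs, Xist as a covariate, blocks and the omission of mice.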

Additional observations from a re-analysis of the deposited data

Results flagged for a closer look

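In 10 of 126 groups (7.94%), 1 library lay farther from the rest than Dixon's test allows at the 95% level, 8 of them above the rest. Chance would give about 1 group in 20. For Ntrk3, WT mouse 4 of P7 CX stood at 361 CPM with the next library at 207 CPM. For Ngfr, WT mouse 2 was high at P7 both in CX, with 7.83 CPM above a next value of 3.50, and in CB, with 62.1 CPM above 49.7. Ngfr was also high in Cul3+/- mouse 1 of P7 HIP (7.03 CPM, next 2.87) and in Cul3+/- mouse 3 of P7 CX (4.36 CPM, next 3.56). Bdnf was high in Cul3+/- mouse 3 of E17.5 CB, at 5.68 CPM with the next at 3.90 CPM, and this mouse carries the prefix S3. Ntf3 was low in Cul3+/- mouse 4 of E17.5 HIP (1.85 CPM, next 4.11), also under S3, and low in Cul3+/- mouse 4 of adult CX (0.693 CPM, next 1.10), and it was high in Cul3+/- mouse 6 of adult CB (12 CPM, next 9.19). Vegfa was high in Cul3+/- mouse 1 of adult CX (59.3 CPM, next 53.2).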

How the results depend on the processing

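Over all settings, the count of calls in WT development ran from 16 to 20 and between regions from 22 to 26. By genotype the members gave 4 calls with 5 RUVs factors and 0 in the other settings, and the pathway lists gave 4 with DESeq2, 17 with 3 and 31 with 5 RUVs factors, 3 without adult WT mice 3 and 5 of CB, and 0 otherwise. The share of all genes called in these settings was not counted. Regional values of a period to which an omitted or restored mouse did not belong were carried over from the main fit, so they could not change. With these copies counted among the kept, of 2625 WT log2 fold changes 2554 kept their direction and side of the threshold, 18 lost the call, 25 gained it and 28 turned. Those that turned were small. Ntf3 from P7 to adult in HIP was -0.02 with upper-quartile normalization, -0.03 without a filter, -0.04 with the replicate block and between -0.05 and 0 (-0.02, -0.04) with 1 mouse left out. Ntf3 in E17.5 CB against CX ran from -0.06 (also -0.03) to 0.31 without 1 WT mouse and was -0.25 without the S3 mice, without which Ngfr in CB from E17.5 to P7 was -0.07. In Cul3+/- mice, Ntrk3 in adults was -0.37 for CB against CX and -0.25 for CB against HIP, it was -0.13 from P7 to adult in HIP and 0.27 in P7 HIP against CX, and Ntrk2 in E17.5 CB against CX was 0.07. Without adult WT mice 3 and 5, Ntrk3 was -0.15, -0.21 and 0.05 for CB against CX, CB against HIP and HIP against CX, and Igf1 was 0.01 for HIP against CX. With 1 mouse left out, Ntrk3 was between -0.09 and 0.03 in adult and between -0.19 and 0.04 in P7 HIP against CX, between -0.03 and 0.22 (also 0 and -0.01) in CX from P7 to adult, and Ntrk2 was 0 in E17.5 CB against CX. The causes were not tested. The replicate block changed no genotype call of a member. With it the quasi-likelihood test gave an unadjusted p under 0.05 in 11 of 63 member tests, against 6 in the main fit. Over the lists it did so in 99 of 779 tests, against 47, with 0 called. The share of all genes under 0.05 with the replicate block was not counted, so these counts are not read as particular to the members or lists. In development, where equal replicate numbers join unrelated mice of different periods, the block gave 17 calls. Without the mouse block 23 regional tests passed. With the prefix of the mouse names as a block at E17.5 and P7, the quasi-likelihood test gave 0 calls of members and 0 of list genes by genotype. The unadjusted p was under 0.05 in 9 of 63 member tests and 82 of 779 list tests, and the share of all genes was not counted. Leaving out the S3 mice, the prefix block and the omission of adult WT mice 3 and 5 were chosen after the data had been seen. The depth limits Ngfr in adult CX, Ntf3 in adult CX and Bdnf in E17.5 CX, where libraries held as few as 19, 23 and 23 counts.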

Other observations

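Deviations of a library from its group mean were also set beside those of the mean log2 CPM of the marker lists, as descriptions over the libraries of the 34 mice, which share mice and dissections. Igf1 and Ntrk2 ran with the 6 astrocyte markers (r = 0.69 and 0.65), and Ntf3 did so at 0.62. Differences between prefixes at E17.5 remain in these deviations. The summed astrocyte markers in WT mice under S3 were 262 and 322 CPM in CX, against 334 to 364 CPM in the others. In HIP they were 518 and 512 CPM against 555 to 687 CPM. In Cul3+/- CX they overlapped, at 314 and 340 CPM against 314 to 357 CPM. The part of the prefix in these correlations was not tested. The 9 measured genes that process pro-neurotrophins ran with Ntrk2 (r = 0.73), Igf1 (0.69) and Ntf3 (0.60). Ntrk3 ran with the 6 hippocampal genes at 0.58. Choroid plexus markers summed to between 20.6 and 3070 CPM in adult WT CB and between 28.3 and 2100 CPM in adult Cul3+/- CB, and to between 14.7 and 4840 CPM in E17.5 WT HIP.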
